A study of Mus musculus with 8 samples.

Results

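Numbered zinc finger protein genes are mouse genes whose symbol is Zfp followed by digits. Most of them encode Cys2-His2 (C2H2) fingers, short protein loops in which 2 cysteines and 2 histidines hold a zinc ion and which read DNA bases in tandem. Many of those proteins also carry a KRAB domain, which recruits the corepressor Trim28 and, through it, the histone methyltransferase Setdb1, and the best known targets of KRAB proteins are transposable elements and imprinted loci. Others have no KRAB domain and act as activators, RNA-binding proteins or ubiquitin-pathway enzymes, and the family has grown by tandem duplication into clusters on a few chromosomes. The genes described here were taken from the deposited table of normalized counts, in which 333 symbols had this form, and were chosen by their mean over the 8 libraries: the 261 with a mean of at least 50, out of 23302 entries in all. The mean was a measured value, so the levels of these genes are a description and not a finding. Of the 72 symbols below that mean, 5 were at 0 in every library and 29 reached the mean of 10 needed for testing. Just inside the limit were Zfp532 with a mean of 52.9, Zfp72 with 55.0 and Zfp248 with 56.9, and just outside were Zfp442 with 49.2, Zfp174 with 46.5 and Zfp583 with 46.0. A mean below 50 in the WT nontumor libraries was found for 7 of the 261 genes, which therefore passed through the other groups. Zfp369 and Zfp948, described below, are among them. In B-EBi3- nontumor such a mean was found for 4 genes, in WT tumor for 2 and in B-EBi3- tumor for 1.

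RNA was sequenced from splenic B cells of C57BL/6 mice, described in the series' design text as naive B cells, in 4 groups of 2 libraries. The groups were WT mice without a tumor (WT nontumor), WT mice bearing a tumor (WT tumor), mice of the genotype labelled B-EBi3- (BEBi3-/- in the design text; Ebi3 is a subunit of the cytokines IL-27 and IL-35) without a tumor (B-EBi3- nontumor), and B-EBi3- mice bearing a tumor (B-EBi3- tumor). The series' title places the tumors in the pancreas, and neither ages, the tumor model nor the way Ebi3 was deleted is given in the labels. A tumor status of WT in the labels was read as no tumor. The labels do not say that the paired libraries are from different mice, and the spread behind each p-value may be technical.

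Depth was 21291892 to 28297319 reads per library. Ebi3 itself was at 8.70 to 12.8 normalized counts in both B-EBi3- groups and in WT nontumor, and at 164 and 201 in WT tumor, so the genotype showed only among the tumor libraries. The WT tumor libraries stood apart: Xist, the RNA that coats the inactive X chromosome, was at 19760 and 26190 there and at 5.59 to 18.3 in the other 6 libraries, and the Y-linked Eif2s3y, Kdm5d and Uty were at 0 there and above 400 elsewhere. They also carry another prefix in their titles. Tumor, sex pattern and title prefix cannot be told apart in the tumor effect in WT, in the comparison of genotypes among tumor libraries, or in the interaction. The 2 B-EBi3- tumor libraries differed by little more than sampling noise (median chi-square of 0.565 per gene, against 1.78 to 2.99 between the libraries of the other groups), so the fits were repeated with the pair counted as 1 sample. The counts of calls are given both ways, and calls of named genes that end in that fit are pointed out. Of 10 B cell markers 8 were in the table, and their summed share of reads was 0.757% to 1.196% over the libraries. Markers of macrophages and erythroid cells, which are not B cells, were also detected, at 0.0336% to 0.392% and 0.0729% to 1.52% of reads.

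By the translated coding sequences of GENCODE M21, 140 of the 261 genes had C2H2 fingers together with a KRAB A-box, 112 had C2H2 fingers without one, 7 had no C2H2 match and 2 had no protein matched. The finger counts reached 37, and 146 genes had 10 or more. Chromosome 7 held 65 of the genes, chromosome 17 held 34 and chromosome 13 held 25. Clusters, taken as at least 4 of the genes with neighbours within 1 Mb, numbered 17 and held 135 genes, of which 99 had a KRAB A-box. The largest, with 18 genes, spanned chr17:21008941-23564226 (GRCm38). The median transcript of a KRAB gene was 3424 bases long with 41.6% GC, against 4021 bases and 49.9% for C2H2 genes without KRAB and 3280 bases and 49.4% for all 13011 tested genes.

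The coding sequences of a few genes show what separates these classes. A C2H2 finger is shown from its first cysteine codon to its last histidine codon (GRCm38, written 5′ to 3′ in the sense of the gene), with the 2 cysteine and 2 histidine codons in capitals, for the genes with the largest rises in WT tumor libraries, for the retroviral silencer Zfp809 and for the B cell regulator Zfp318.
Zfp369 (plus strand, chr13:65297151-65297213): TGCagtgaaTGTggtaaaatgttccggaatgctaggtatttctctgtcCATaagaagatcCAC
Zfp169 (minus strand, chr13:48490813-48490875): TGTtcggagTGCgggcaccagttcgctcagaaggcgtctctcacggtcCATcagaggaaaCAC
Zfp619 (plus strand, chr7:39535205-39535267): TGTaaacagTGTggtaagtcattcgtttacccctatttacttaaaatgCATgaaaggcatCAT
Zfp809 (plus strand, chr9:22238677-22238742): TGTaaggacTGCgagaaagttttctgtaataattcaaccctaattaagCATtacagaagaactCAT
Zfp318 (plus strand, chr17:46409145-46409213): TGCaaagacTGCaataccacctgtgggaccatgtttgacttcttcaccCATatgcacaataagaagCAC
Zfp36, which fell in WT tumor libraries, has no such finger. Its RNA-binding fingers have 3 cysteines and 1 histidine, and their codons are in capitals here.
Zfp36 (minus strand, chr7:28378158-28378217): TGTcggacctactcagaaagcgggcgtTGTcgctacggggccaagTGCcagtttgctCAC
Zfp36, next finger (minus strand, chr7:28378044-28378103): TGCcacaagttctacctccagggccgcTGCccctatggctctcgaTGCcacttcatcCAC
The KRAB A-box is shown for 3 genes, with capitals on the codons whose residue is a usual one among the 24 positions scored. Zfp809 matched 24 of the 24 positions, and Zfp169 and Zfp445 matched 22.
Zfp809 (plus strand, chr9:22235026-22235124): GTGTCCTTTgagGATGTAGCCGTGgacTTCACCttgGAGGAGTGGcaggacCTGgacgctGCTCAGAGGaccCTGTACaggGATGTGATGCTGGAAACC
Zfp169 (minus strand, chr13:48498802-48498900): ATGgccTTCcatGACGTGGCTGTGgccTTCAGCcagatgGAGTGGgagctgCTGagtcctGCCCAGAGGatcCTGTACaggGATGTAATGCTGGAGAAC
Zfp445 (minus strand, chr9:122856721-122856819): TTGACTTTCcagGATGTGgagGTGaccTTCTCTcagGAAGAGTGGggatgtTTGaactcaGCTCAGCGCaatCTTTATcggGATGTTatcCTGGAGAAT

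The numbered zinc finger genes took a larger share of the reads in tumor libraries, and most of all in WT tumor. Together they made up 0.515% and 0.459% of reads in WT nontumor and 1.07% and 1.17% in WT tumor. In B-EBi3- mice the share was 0.573% and 0.521% without a tumor and 0.725% and 0.726% with one. Every tumor library lay above every nontumor library. Per kilobase of the longest transcript the median of the 261 was 97.9 normalized counts, from 7.89 for Zfp532 and 12.5 for Zfp846 to 1605 for Zfp207 and 6337 for Zfp36, and 4 genes exceeded 1000. Against the mean of the WT nontumor libraries, the median gene was 0.88 and 0.97 higher (log2) in the WT tumor libraries and 0.35 and 0.34 higher in the B-EBi3- tumor libraries, while the median of all tested genes stayed between -0.02 and 0.01 in those 4 libraries. Within the nontumor pairs the genes also moved together: the first library lay above the second by a median of 0.17 in WT and 0.08 in B-EBi3-, against -0.09 in WT tumor and 0.00 in B-EBi3- tumor.

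**Figure D1:**
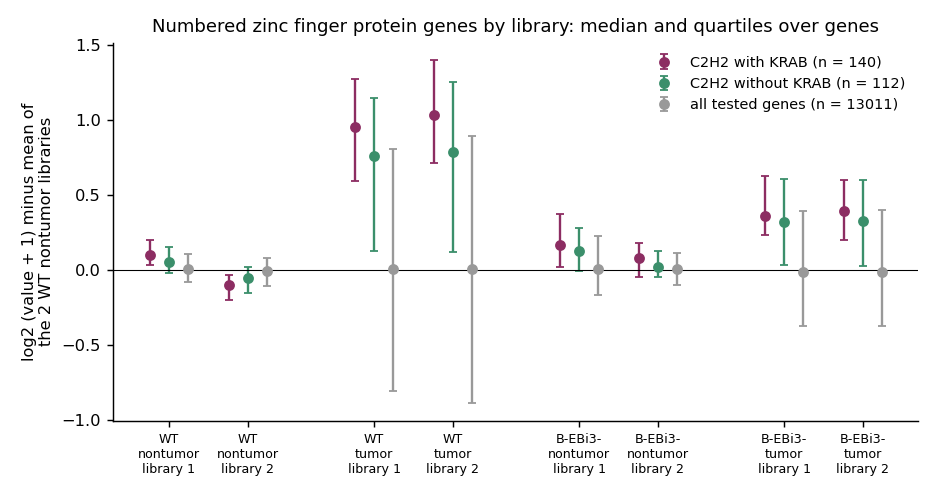
Median (point) and quartiles (bars) over genes of the log2 value in each library, minus the mean of the 2 WT nontumor libraries, for C2H2 genes with KRAB, C2H2 genes without KRAB and all tested genes. The KRAB genes have medians of 0.95 and 1.03 in the WT tumor libraries and 0.36 and 0.39 in the B-EBi3- tumor libraries, while all tested genes stay near 0.

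In WT mice 209 of the 261 genes were higher in tumor than in nontumor libraries and 17 were lower (limma on log2 of the normalized count + 1, Benjamini-Hochberg adjusted p below 0.05). Among all tested genes, 39.6% were called higher and 40.1% lower in this comparison. The median log2 difference of the 261 was 0.92, against 0.01 over all tested genes. At least 2-fold higher and called were 112 of the 261, against 20.8% of all tested genes, 15 were at least 4-fold higher, and 4 were at least 2-fold lower. In 225 genes both tumor libraries lay above both nontumor libraries, and in 23 both lay below, against 45.8% and 45.6% of all tested genes. Among the more abundant genes, 101 with a mean of 500 or more, 87 were called higher and 6 lower.

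The calls are given by protein class, and the difference between classes was not tested. Of the 140 C2H2 genes with KRAB, 129 were higher and 0 lower, with a median of 1.01, and the other 11 lay between -0.16 and 0.44 without passing the test. Of the 112 without KRAB, 75 were higher and 15 lower, with a median of 0.78. Among the 7 without a C2H2 match 3 were higher and 2 lower, and both genes without a matched protein were higher. The 17 genes called lower were therefore 15 C2H2 genes without KRAB, together with Zfp36 and Zfp703. Another 85 tested genes that encode C2H2 fingers with KRAB under other names had 63 called higher, 3 lower and a median of 1.08.

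The largest rise was that of Zfp369, a KRAB and C2H2 gene at chr13:65277228-65304222 also known as Nrif2, an interactor of the p75 neurotrophin receptor. Its normalized counts were 42.5 and 30.2 in WT nontumor libraries, 435 and 514 in WT tumor, 54.9 and 50.9 in B-EBi3- nontumor and 67 and 69.7 in B-EBi3- tumor. Both WT tumor libraries lay far above the other 6. The log2 difference in WT was 3.69 ± 0.20 (SE, adjusted p = 1.18e-06, limma). The difference in B-EBi3- was 0.36 ± 0.20 and did not pass (adjusted p = 0.19, limma). Both WT nontumor libraries lay below the mean by which the genes were chosen, and the WT tumor libraries added most to the mean of Zfp369. Its rise in WT is therefore a description only, as are its genotype difference in tumor libraries and its interaction.

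Zfp169, with 17 fingers and a KRAB domain, at chr13:48480763-48513493, had normalized counts of 77.1 and 38.4 in WT nontumor libraries, 395 and 492 in WT tumor, 109.9 and 90.4 in B-EBi3- nontumor and 117 and 125 in B-EBi3- tumor. It was high in WT tumor only, and its WT nontumor libraries differed from each other about 2-fold. Its log2 difference was 2.99 ± 0.29 in WT and 0.27 ± 0.29 in B-EBi3-, where it did not pass. Zfp619, a KRAB gene with 33 fingers at chr7:39517766-39540415, had normalized counts of 179 and 115 in WT nontumor libraries, 948 and 1149 in WT tumor, 300.3 and 196 in B-EBi3- nontumor and 494 and 483 in B-EBi3- tumor, and both tumor groups lay above both nontumor groups. The differences were 2.85 ± 0.24 in WT and 1.01 ± 0.24 in B-EBi3- (adjusted p = 0.0175, limma). The call in B-EBi3- ended with the tumor pair as 1 sample (adjusted p = 0.103, limma).

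Zfp318 is known in B cells as the factor that lets the long immunoglobulin heavy chain transcript be processed into delta message, and so permits surface IgD. It lies at chr17:46383515-46420920 and had normalized counts of 2232 and 1558 in WT nontumor libraries, 9454 and 11447 in WT tumor, 2218 and 1818 in B-EBi3- nontumor and 4612 and 4694 in B-EBi3- tumor. Both tumor groups lay above both nontumor groups, and WT tumor lay highest. The log2 difference was 2.48 ± 0.17 in WT (adjusted p = 3.15e-06, limma) and 1.21 ± 0.17 in B-EBi3- (adjusted p = 0.00189, limma), and it was among the 7 genes still called in B-EBi3- when the tumor pair was counted as 1 sample. Its transcript of 13060 bases is among the longest here, and with each library's trend on length and GC removed the differences were 1.05 and 0.89. The heavy chain genes Ighm and Ighd are not analysed here.

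The other genes among the 10 largest rises in WT were Zfp292, Zfp329, Zfp445, Zfp40, Zfp831 and Zfp608, with log2 differences of 2.69, 2.65, 2.29, 2.15, 2.14 and 2.13. Each was also called higher in B-EBi3- tumor, at 1.01, 0.999, 0.75, 0.93, 0.83 and 0.76 in the same order, but with the B-EBi3- tumor pair as 1 sample only Zfp329 of these 6 was still called there. Zfp445 is a KRAB protein that maintains genomic imprints. It had normalized counts of 1170.4 and 792 in WT nontumor libraries, 4392 and 5038 in WT tumor, 1435 and 1096 in B-EBi3- nontumor and 2136 and 2086 in B-EBi3- tumor, so that both tumor groups lay above both nontumor groups.

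**Figure D2:**
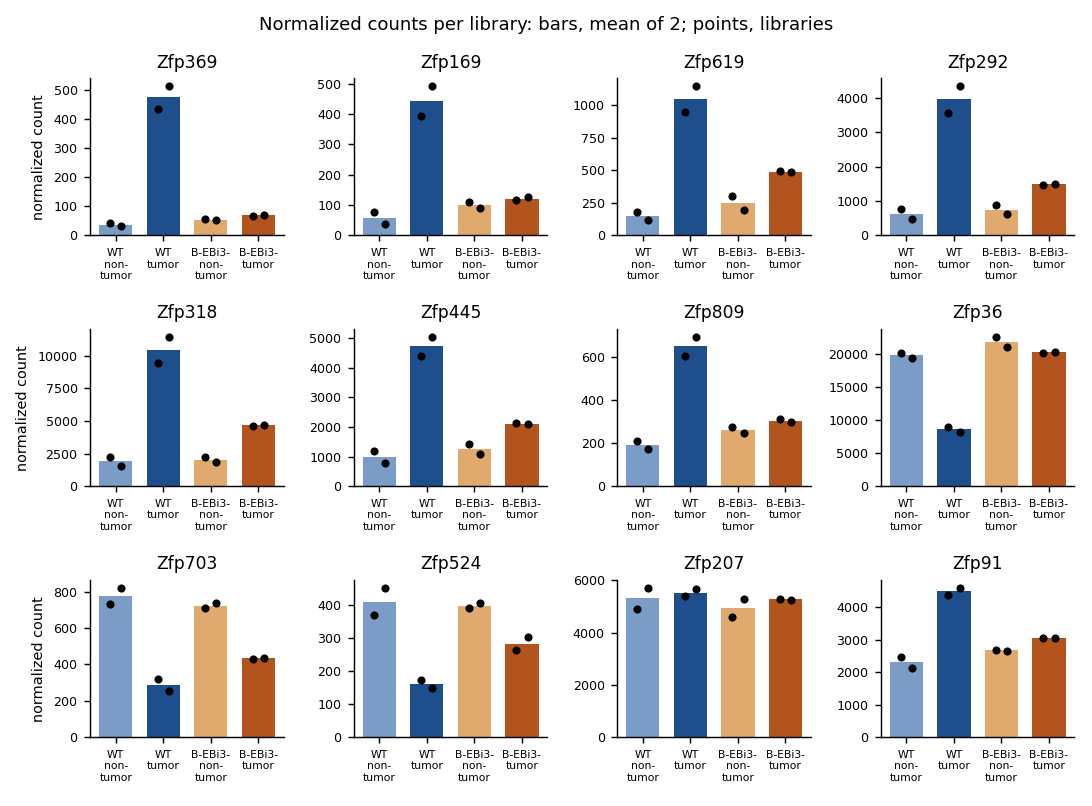
Normalized counts of 12 genes in each library, with bars for the mean of 2 libraries and points for the libraries. Zfp369 and Zfp169 are high in WT tumor alone, Zfp318, Zfp292, Zfp619 and Zfp445 are raised in both tumor groups, Zfp36 is low in WT tumor alone, and Zfp703 and Zfp524 are lower in both.

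Zfp809 and Zfp568 are KRAB genes with a known target, and both were called higher in WT. Zfp809 silences retroviral DNA by recognizing the primer binding site for proline tRNA. It had normalized counts of 208 and 173 in WT nontumor libraries, 605 and 692 in WT tumor, 272 and 244 in B-EBi3- nontumor and 309.7 and 299 in B-EBi3- tumor, with WT tumor well above the other groups and the B-EBi3- groups close together. The log2 difference was 1.77 ± 0.13 in WT and 0.24 ± 0.13 in B-EBi3-, which did not pass (adjusted p = 0.185, limma). Zfp568, which represses a placental transcript of Igf2, was 212 ± 43.5 in WT nontumor and 771 ± 62.4 in WT tumor (mean ± SD, n = 2), a log2 difference of 1.87 ± 0.15. In B-EBi3- it rose by 0.63 (adjusted p = 0.0165, limma), a call that ended with the tumor pair as 1 sample (adjusted p = 0.106, limma).

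The C2H2 regulators without KRAB that were chosen for a known role included genes that did not pass. Zfp281, a pluripotency factor, rose by 1.18 in WT and 0.39 in B-EBi3-. Zfp335, needed for T cell maturation, rose by 1.26 and 0.66, and Zfp326, a subunit of the DBIRD complex that couples elongation to splicing, by 1.20 and 0.45. Zfp384, a recurrent fusion partner in B cell leukemia, rose by 0.62 and 0.40, and shares 20.4% of its 31-base words with other genes. With the B-EBi3- tumor pair as 1 sample, none of Zfp281, Zfp335, Zfp326 and Zfp384 was called in B-EBi3-. Zfp91, a ubiquitin ligase of the noncanonical NF-kB pathway, and Zfp143, which binds promoters and chromatin contacts, rose in WT by 0.96 and 0.85, and their differences of 0.19 and 0.15 in B-EBi3- did not pass.

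Zfp410, known as an activator of the chromatin remodeler Chd4, and Zfp207, a spindle assembly factor, were not called in either genotype. Zfp410 had normalized counts of 904 and 860.1 in WT nontumor libraries, 941 and 978 in WT tumor, 967 and 863 in B-EBi3- nontumor and 892 and 862 in B-EBi3- tumor, and the groups overlapped in B-EBi3-. Chd4 was called higher in WT with a log2 difference of 1.16. Zfp207 had normalized counts of 4899.8 and 5720.4 in WT nontumor libraries, 5405 and 5662 in WT tumor, 4587 and 5272 in B-EBi3- nontumor and 5302 and 5257 in B-EBi3- tumor, with overlapping groups in both genotypes and differences of 0.06 ± 0.10 and 0.10 ± 0.10. Zfp706, a small protein with 1 finger, was called lower in WT, with a log2 difference of -0.32 ± 0.08 (adjusted p = 0.00402, limma), and its difference of -0.14 in B-EBi3- did not pass.

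For a pair of these genes the direction depended on the length and GC trend. Zfp148, which binds GC-rich elements, and Zfp451, a SUMO ligase, have transcripts of 9830 and 11876 bases. They were called higher in WT by 0.95 and 1.11, and with the trend removed they were called lower, at -0.30 and -0.28. In B-EBi3- their differences were 0.26 and 0.31 and did not pass.

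Fewer genes fell in WT tumor. Zfp36 encodes tristetraprolin, which binds AU-rich elements and promotes decay of cytokine mRNAs, and lies at chr7:28376784-28379228. It had normalized counts of 20234 and 19511 in WT nontumor libraries, 8977 and 8271 in WT tumor, 22687 and 21150 in B-EBi3- nontumor and 20182 and 20429 in B-EBi3- tumor. Both WT tumor libraries lay far below the other 6. The log2 difference was -1.21 ± 0.08 in WT (adjusted p = 2.28e-06, limma) and -0.11 ± 0.08 in B-EBi3- (adjusted p = 0.287, limma). Its relatives Zfp36l1 and Zfp36l2, which bind the same kind of element, were called higher in both genotypes, by 0.77 and 1.01 in WT and by 0.64 and 1.12 in B-EBi3-.

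Zfp703, a transcriptional corepressor at chr8:26977336-26981462, had normalized counts of 731 and 823 in WT nontumor libraries, 318 and 252 in WT tumor, 709 and 739.9 in B-EBi3- nontumor and 429.7 and 438 in B-EBi3- tumor. It was lower in both tumor groups, by 1.45 ± 0.12 in WT and 0.74 ± 0.12 in B-EBi3- on the log2 scale (adjusted p = 0.00463, limma). Zfp524 fell by 1.34 and 0.49, but 46.8% of its 31-base words occur in other genes, so its counts may be shared with them. Its call in B-EBi3- ended with the tumor pair as 1 sample, and that of Zfp703 did not. The other large falls in WT were those of Zfp219, Zfp771, Zfp593, Zfp637, Zfp467, Zfp787 and Zfp358, with log2 differences from -1.06 to -0.66, and none of these passed in B-EBi3-. Zfp593 and Zfp622 are homologs of yeast factors that mature the large ribosomal subunit, and they differed by -0.92 and -0.39 in WT. With the length and GC trend removed Zfp771, with a transcript of 1484 bases, had a difference of 0.55 and was not called.

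Transcript length moved with the tumor effect across the whole table, so the genes were set against tested genes of similar length. Tested genes were put into 5 bins of equal size by the longest transcript. In WT the median log2 difference of all tested genes ran from -0.91 in the shortest bin through -0.35, 0.02 and 0.35 to 0.91 in the longest. The numbered zinc finger genes ran through 0.44, 0.77, 0.76, 1.01 and 1.21 in the same bins, with 14, 53, 71, 64 and 59 genes. They lay above the other genes of their length in each bin, by most in the short bins and by least in the longest. The KRAB genes alone had medians of 1.03, 0.78, 1.06, 1.15 and 1.15.

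In the bin of 1903 to 2834 bases, 38 of the 53 zinc finger genes were called higher and 5 lower, while 591 of all 2572 tested genes were higher and 1361 lower. With each library's trend on length and GC removed before the fit, 191 of the 261 genes were called higher and 20 lower in WT, with a median of 0.69 against 0.02 over all tested genes. In the longest bin the median after removal was 0.44 for the zinc finger genes, 0.28 for the 25 KRAB genes there and 0.16 for all tested genes. Over the 261 genes the rank correlation of the WT difference with transcript length was 0.38, with GC content -0.25 and with the number of fingers 0.30, and over all tested genes that with length was 0.43. These values share the same 4 libraries and are given as a description.

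**Figure D3:**
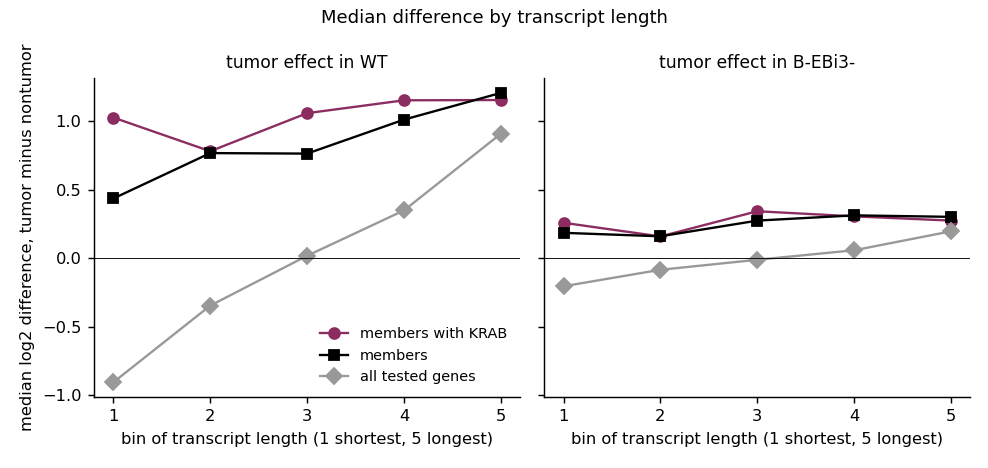
Median log2 difference, tumor minus nontumor, in 5 equal bins of tested genes by transcript length, for the zinc finger genes, those with KRAB and all tested genes, in WT (left) and B-EBi3- (right). In WT the medians of all tested genes climb from -0.91 to 0.91 while those of the zinc finger genes climb from 0.44 to 1.21.

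Other measures moved with the tumor libraries beside these genes. The nuclear-retained RNAs Malat1, Neat1, Kcnq1ot1, Ftx and Jpx together rose from 0.0192% and 0.00898% of reads in WT nontumor to 0.164% and 0.203% in WT tumor, and from 0.0324% and 0.0132% to 0.0602% and 0.0592% in B-EBi3-. All 5 were called higher in WT and 4 of 5 in B-EBi3-. Within the nontumor pairs the library with more of these RNAs was also the one with more zinc finger reads, as in WT tumor, while in B-EBi3- tumor the order was the other way. Cytosolic ribosomal protein genes fell from 23.4% and 23.9% of reads to 10.2% and 8.70% in WT and from 21.3% and 21.8% to 17.9% and 17.98% in B-EBi3-. All 8 macrophage markers were called lower in both genotypes, from 0.338% and 0.364% of reads to 0.0381% and 0.0336% in WT and from 0.313% and 0.392% to 0.198% and 0.197% in B-EBi3-, and all 8 erythroid markers were lower too. In WT, 8 of 8 granulocyte, 5 of 7 T cell, 6 of 6 NK cell, 6 of 6 platelet and 4 of 5 dendritic cell markers were also lower, and in B-EBi3- these were 6, 1, 0, 0 and 3. Of all tested genes 40.1% were lower and 39.6% higher in WT, and 18.5% and 14.1% in B-EBi3-. The median transcripts of those 5 lists were 1004, 2539, 1246, 1159 and 4046 bases in the same order. In the shortest bin of tested genes 1785 of 2578 were lower in WT. The summed share of the plasma cell markers went opposite ways. Of 6, 4 were lower and 1 higher in WT, from 0.154% and 0.141% of reads to 0.0526% and 0.0455%. In B-EBi3- 1 was lower and 5 higher, from 0.122% and 0.111% to 0.230% in both tumor libraries. Igj, Tnfrsf17 and Xbp1 were called in opposite directions, while Sdc1 was called higher and Mzb1 lower in both genotypes. B cell markers took 0.790% and 0.757% of reads in WT nontumor and 1.196% in both WT tumor libraries, with 5 of 8 called higher and 2 lower, and 0.893% and 0.835% against 1.01% and 1.015% in B-EBi3-, with 2 higher and 0 lower. The part of these in the rise of the zinc finger genes was not tested. In bulk RNA, fewer cells of a type and less RNA per cell cannot be told apart.

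The clusters differed in how many of their genes were called, and that difference was not tested. Of all 261 genes 209 were called higher and 17 lower in WT, and 90.4% had a difference above 0. Of all tested genes 39.6% were higher and 40.1% lower, and 50.3% had a difference above 0. In 10 of the 17 clusters every gene had a difference above 0 in WT, and 5 clusters held a gene called lower. All 14 genes of the cluster at chr7:29768552-30169775, which includes Zfp568, were called higher, with a median of 1.14. In the largest cluster, on chromosome 17, 16 of 18 were higher and 0 lower, and in the cluster of 15 genes at chr13:67038594-67827000 14 were higher and 0 lower. Fewer were called in 4 other clusters: 5 of 10 higher and 2 lower at chr7:127233061-127885996, 4 of 9 and 1 at chr7:6131489-7209998, 1 of 5 and 1 at chr7:4915181-5038446, and 2 of 5 and 0 at chr15:75615200-76892395. The 126 genes outside clusters had 102 higher and 11 lower with a median of 0.89, close to the 107, 6 and 0.95 of the 135 genes inside. Sequence shared with any other gene, in the same cluster or not, was counted over all 261 genes. Over 20% of their 31-base words were shared by 34 genes, and 26 of those were higher and 1 lower. Of the 190 that shared up to 5%, 150 were higher and 15 lower.

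**Figure D4:**
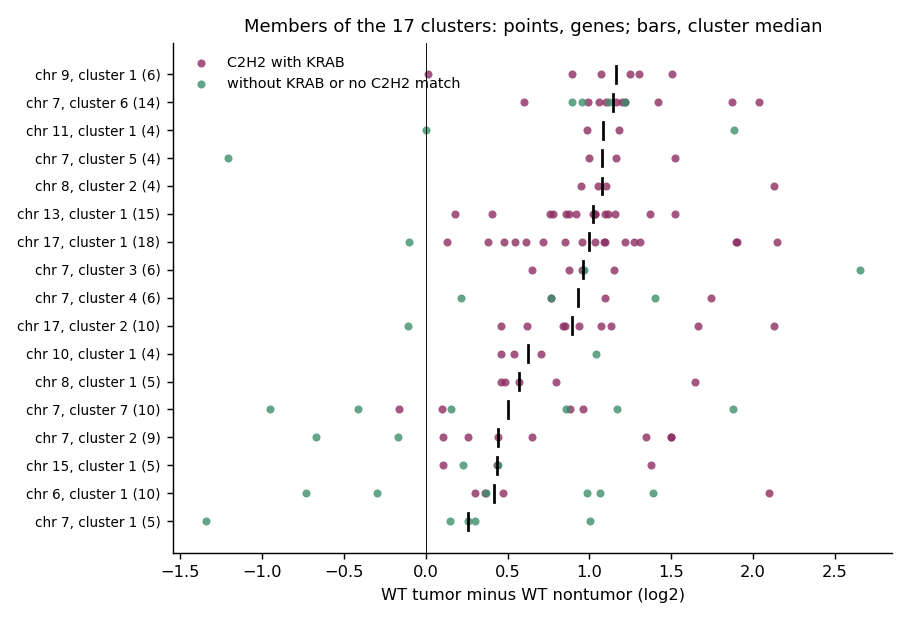
Log2 difference, WT tumor minus WT nontumor, of each gene (points) in the 17 chromosomal clusters, with the number of genes in parentheses and a bar at the cluster median. Every cluster median is above 0, and 10 clusters have no gene at or below 0.

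Promoter sequence was compared as a property that the choice of the genes had not used. RefSeq promoters of 300 bases (GRCm38.p6, 250 before to 50 after the start, 1 a gene) were matched for 217 of the 261 genes and for 10323 tested genes. The CCAAT box (CCAAT, either strand) was in 49.8% of the zinc finger promoters, in 54.0% of those of KRAB genes, in 39.3% of those of tested genes and in 37.9% of all 27025 promoters. The ETS motif CCGGAAG was in 21.7% of zinc finger promoters and 18.2% of those of tested genes. In C2H2 genes without KRAB the CCAAT box was in 45.3% and the ETS motif in 16.3%. The other motifs counted were AAGATGG (9.68% of zinc finger promoters, 7.5% of tested genes), GCATGCG (5.99% and 6.53%) and TATAAA (6.45% and 7.33%). The median GC content was 53.0% in KRAB promoters and 61.3% in those of C2H2 genes without KRAB. CCAAT was in 50.3% of the 177 promoters of genes called higher in WT and in 4 of the 12 (33.3%) of genes called lower. The median GC content of these promoters was 54.3% and 66.8%, and no gene called lower had a KRAB A-box.

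In B-EBi3- mice the direction was the same and the differences were smaller. Of the 261 genes, 74 were called higher in tumor than in nontumor and 3 lower, with a median log2 difference of 0.27, against 14.1% and 18.5% of all tested genes and a median of -0.01. With the 2 tumor libraries counted as 1 sample, 7 were higher and 2 lower. The 7 were Zfp12, Zfp131, Zfp318, Zfp329, Zfp488, Zfp59 and Zfp764, of which those not described elsewhere were chosen after their values were seen. Averaging the pair leaves the differences almost as they were. By construction, therefore, all 74 stayed above 0 and their median was 0.55 in both fits. Without B-EBi3- nontumor replicate 2 the count was 21. Both tumor libraries lay above both nontumor libraries in 171 genes and below in 30, against 36.6% and 39.0% of all tested genes. KRAB genes had 38 higher and 0 lower of 140, and C2H2 genes without KRAB 33 higher and 2 lower of 112, and the difference between classes was not tested.

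The largest rises in B-EBi3- were those of Zfp948 and Zfp300, both KRAB genes, and of the 10 largest only those of Zfp318, Zfp329 and Zfp488 were still called with the tumor pair as 1 sample. Zfp948 had normalized counts of 40.2 and 24.7 in WT nontumor libraries, 111 and 131 in WT tumor, 49.8 and 21.6 in B-EBi3- nontumor and 83.5 and 92.6 in B-EBi3- tumor, so the tumor libraries lay above the nontumor ones in each genotype while the B-EBi3- nontumor libraries differed from each other more than 2-fold. All its nontumor libraries lay below the limit of 50, so it was chosen through its tumor libraries, and its rise is a description only. The difference of Zfp948 was 1.39 ± 0.38 (adjusted p = 0.0265, limma). Averaging the tumor pair leaves that difference almost as it was, at 1.39, and its call ended then. Without B-EBi3- nontumor replicate 2 the difference was 0.81. Zfp300, on the X chromosome, rose by 1.24. The other 8 were Zfp318, Zfp292, Zfp619, Zfp329, Zfp182, Zfp40, Zfp488 and Zfp783, between 0.86 and 1.21. The 3 that fell were Zfp703, Zfp367 and Zfp524. Zfp367 had normalized counts of 875 and 929 in WT nontumor libraries, 682 and 679 in WT tumor, 1045 and 944 in B-EBi3- nontumor and 600.2 and 625 in B-EBi3- tumor, with both tumor groups below both nontumor groups, and fell by 0.70 in B-EBi3- and 0.41 in WT.

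Called higher in both genotypes were 73 genes, which is 98.6% of the 74 in B-EBi3- and 34.9% of the 209 in WT. Of all 261 genes, 80.1% were called higher in WT, so a large overlap follows from that share alone. All 3 that fell in B-EBi3- also fell in WT, and 0 genes were called in opposite directions. The 2 tumor effects share no library, and over the 261 genes their differences had a Pearson correlation of 0.67 and a rank correlation of 0.63, given as a description since the genes share transcript length and other properties that move with the tumor libraries. The difference was larger in WT than in B-EBi3- for 229 of the 261. It was larger in B-EBi3- for 12.3% of the 261, against 49.5% of all tested genes. Long transcripts in general leaned the same way: in the longest bin it was larger in B-EBi3- for 1.7% of the 59 zinc finger genes and 19.3% of all tested genes.

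**Figure D5:**
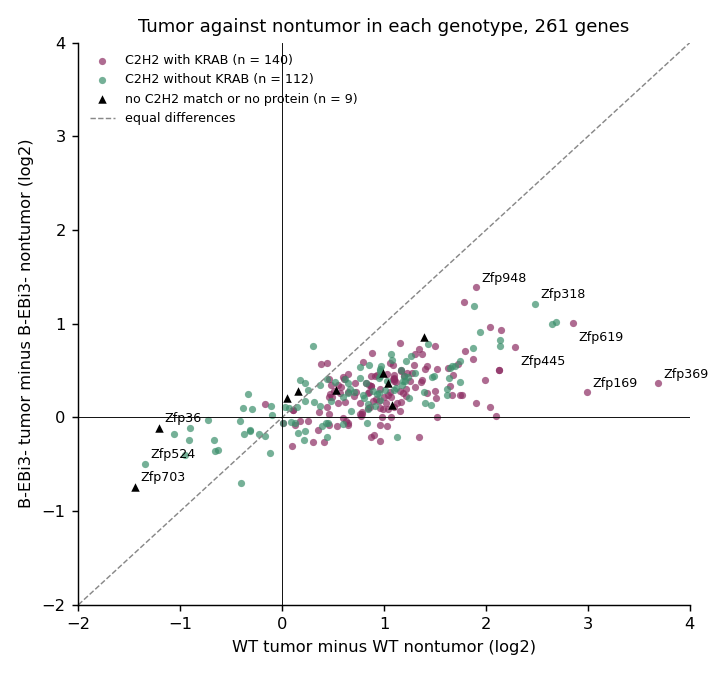
Log2 difference of tumor minus nontumor in WT (x axis) and in B-EBi3- (y axis) for each of the 261 genes, by protein class, with a dashed line at equal differences. Most points lie below the line and right of 0, with Zfp369 at 3.69 and 0.36 farthest from it, and Zfp36 at -1.21 and -0.11 on its other side.

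Without a tumor, no numbered zinc finger gene passed the test between the genotypes. In B-EBi3- against WT nontumor libraries 0 of 261 were called higher and 0 lower (limma), as were 0% and 0% of all tested genes, and edgeR and DESeq2 also called 0 of the 261. At an unadjusted p below 0.05, 25 of the 261 were higher and 3 lower, and of the 13011 tested genes 653 were higher and 396 lower. The median log2 difference was 0.09, against 0.01 over all tested genes. The smallest p-values belonged to Zfp53, Zfp777, Zfp809, Zfp608 and Zfp619, with differences of -0.37, 0.31, 0.44, 0.43 and 0.75 and an adjusted p of 0.604 for each (limma). With 2 libraries a group, differences of such size could not be told from the spread between libraries.

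Among tumor-bearing mice, B-EBi3- libraries had lower levels of most of these genes than WT libraries. Of the 261, 13 were called higher and 170 lower, with a median log2 difference of -0.51, against 31.9% and 28.6% of all tested genes and a median of 0.00. KRAB genes had 1 higher and 105 lower of 140, and C2H2 genes without KRAB 10 higher and 60 lower of 112. With the B-EBi3- tumor pair as 1 sample the counts were 8 and 121. With the length and GC trend removed they were 16 and 128. The largest differences were those of Zfp369 (-2.77), Zfp169 (-1.86), Zfp398 (-1.696), Zfp329 (-1.64), Zfp871 (-1.597) and Zfp760 (-1.57), followed by Zfp382, Zfp799, Zfp292 and Zfp882. Zfp398 had normalized counts of 148 and 102 in WT nontumor libraries, 501 and 554 in WT tumor, 174 and 148 in B-EBi3- nontumor and 155 and 169.6 in B-EBi3- tumor, with the B-EBi3- tumor libraries within the range of the B-EBi3- nontumor ones.

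Of the 13 genes higher in B-EBi3- tumor, 11 were also called lower in WT tumor than in WT nontumor, and Zfp688 and Zfp775 were not. They were led by Zfp36 at 1.24 ± 0.08 (adjusted p = 1.22e-05, limma). Zfp219, Zfp524, Zfp637, Zfp703, Zfp467, Zfp768, Zfp593, Zfp787 and Zfp688 followed, from 0.93 to 0.48. These comparisons share the WT tumor libraries with the tumor effect in WT. Zfp219 had normalized counts of 282 and 296 in WT nontumor libraries, 148 and 128 in WT tumor, 307 and 288 in B-EBi3- nontumor and 260.1 and 267 in B-EBi3- tumor, and the WT tumor libraries lay far below the other 6. Of the 17 genes with a known role, 12 were lower in B-EBi3- tumor, Zfp36 was higher, and Zfp335, Zfp207, Zfp410 and Zfp706 did not pass. With the B-EBi3- tumor pair as 1 sample, the calls of Zfp326, Zfp384, Zfp467, Zfp768 and Zfp688 in this comparison ended.

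The interaction, the tumor effect in B-EBi3- minus that in WT, tested whether the tumor effect differed between the B-EBi3- and the WT libraries. It includes the WT tumor libraries, so genotype, sex pattern and title prefix cannot be told apart in it. The largest value was that of Zfp369, at -3.32 ± 0.29 (adjusted p = 0.000135, limma), followed by Zfp169 at -2.72 ± 0.41. The value of Zfp369 is a description only, because its level in WT tumor helped it to be chosen. The largest above 0 was that of Zfp36 at 1.10 ± 0.11. The interaction was called lower for 146 of the 261 genes and higher for 9, with a median of -0.64, against 25.4% lower and 27.5% higher among all tested genes and a median of -0.01. KRAB genes had 89 lower and 0 higher of 140, and C2H2 genes without KRAB 55 lower and 7 higher of 112. With the B-EBi3- tumor pair as 1 sample 102 were lower and 7 higher, the calls of Zfp335, Zfp467 and Zfp511 being among those that ended, and with the length and GC trend removed 110 were lower and 9 higher.

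The partners through which KRAB proteins repress were called in both directions. Of 21 tested, 12 were higher and 8 lower in WT tumor, with a median of 0.31, and 5 were higher and 4 lower in B-EBi3- tumor, with a median of -0.02. Of all tested genes 39.6% were higher and 40.1% lower in WT, and 14.1% and 18.5% in B-EBi3-. The partners called lower were near that share in both genotypes. The same shares stand beside the other families below. The 4 with the smallest p in WT were Atf7ip, which stabilizes Setdb1, at 2.14, Uhrf1, which brings Dnmt1 to replicated DNA, at -1.58, Dnmt1, the maintenance DNA methyltransferase, at 0.85, and Chd4, a remodeler of the NuRD complex, at 1.16. In B-EBi3- these were 0.51, -1.51, -0.07 and 0.24, and Dnmt1 and Chd4 did not pass there. Trim28 and Setdb1, introduced above and added outside the naming rule after their values were seen, had differences of -0.42 and 0.98 in WT, both called. In B-EBi3- Trim28 was at -0.18 and did not pass, and Setdb1 was called higher at 0.40. Among other zinc finger families with a mean of at least 50, the Zbtb genes had 23 higher and 3 lower of 33 in WT, with a median of 0.80, and the Zkscan and Zscan genes 13 higher and 0 lower of 16, with a median of 0.68. In B-EBi3- the Zbtb genes had 11 higher and 2 lower, and the Zkscan and Zscan genes 5 higher and 0 lower. The 29 numbered Zfp genes with a mean of 10 to 50 had 15 higher and 4 lower in WT and a median of 0.79. Those of them with a KRAB A-box are also among the 85 other KRAB genes above.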

How the data were processed

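RNA of splenic B cells was sequenced from 8 libraries in 4 groups of 2 (WT and B-EBi3-, each with and without a tumor). Per the submitters' processing notes, the build was mm10 and the tools included Salmon and DESeq2 (versions not given in the sources used here). Values as deposited are the authors' normalized counts (signal), 1 per gene symbol and library. Divided by each library's smallest step, 100% of them were whole reads within 0.01, which gave the depth.

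The 261 genes and the gene lists were chosen with earlier results of these data known. Tests covered the 13011 genes whose mean reached 10 and were made with limma 3.58.1 in R 4.3.3 on log2 (normalized count + 1), with 1 mean for each group, a prior variance that follows the mean, and Benjamini-Hochberg adjustment over all tested genes within a comparison. Errors beside log2 differences are standard errors, tests are two-sided, and fold changes of low genes are understated by the added 1. There were 5 comparisons: tumor in each genotype, genotype in each tumor status, and the interaction.

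Transcript lengths, coding sequences and clusters come from GENCODE M21 and the RefSeq table of GRCm38.p6, where 256 genes matched by symbol and 5 by synonym. A KRAB A-box was called with at least 15 of 24 usual residues, and a C2H2 finger by the spacing of its cysteines and histidines.

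The named genes are those with a known role, up to 10 largest rises and falls per comparison among called genes whose groups do not overlap (the 5 smallest p where none is called), 3 on each side of the mean of 50, the extremes per kilobase, and up to 4 genes of each list. Alternatives were a pseudocount of 5, no filter, quantile scaling, removal of the length and GC trend, each library left out, a replicate block from the title number, and tests of the recovered reads with DESeq2 1.42.0 and edgeR 4.0.16. Chosen after seeing the data, the B-EBi3- tumor pair as 1 sample, crossed title numbers and a fit of the WT libraries alone were added to these. The fits were tested on simulated data.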

Additional observations from a re-analysis of the deposited data

Results flagged for a closer look

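The tumor effect differed between the genotypes, by the interaction term in limma, for 155 of the 261 numbered zinc finger genes: it was lower in B-EBi3- than in WT for 146 and higher for 9. On the log2 scale (B-EBi3- minus WT), the largest negative differences among KRAB genes were Zfp369 -3.32, Zfp169 -2.72, Zfp398 -2.08, Zfp382 -1.92, Zfp619 -1.85, Zfp760 -1.74, Zfp882 -1.63 and Zfp871 -1.62. For the KRAB genes named for a known role the values were Zfp445 -1.54, Zfp809 -1.53 and Zfp568 -1.25. Among C2H2 genes without KRAB the largest were Zfp292 -1.68 and Zfp329 -1.65. For those named for a known role the values were Zfp318 -1.27, Zfp281 -0.79, Zfp91 -0.77, Zfp326 -0.75, Zfp143 -0.70 and Zfp335 -0.60. With the length and GC trend removed, the tumor effects of Zfp318 in WT and in B-EBi3-, given above, lay much closer together. For Zfp148 and Zfp451 the values were -0.69 and -0.80, and both were above 0 with the length and GC trend removed. The 9 positive differences were Zfp36 1.10, Zfp219 0.89, Zfp524 0.85, Zfp637 0.78, Zfp703 0.71, Zfp467 0.71, Zfp593 0.68, Zfp511 0.58 and Zfp622 0.48, and all 9 belong to genes that were lower in WT tumor than in WT nontumor. The WT tumor libraries, on which each of these values rests, carry a sex pattern and title prefix that the other libraries lack, and the part of these was not tested.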

How the results depend on the processing

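The 209 genes called higher in WT and the 17 called lower were 191 to 215 and 13 to 20 under every alternative, and 0 of 261 were called for the genotype in nontumor libraries under any. The count in B-EBi3- depended on which libraries entered: 74 called higher became 7 with the tumor pair as 1 sample, and 6 to 102 with 1 library left out in turn (6 and 8 without B-EBi3- tumor replicates 1 and 2, 21 without B-EBi3- nontumor replicate 2, 102 without WT nontumor replicate 1). Those left-out fits and the averaged pair leave a group with 1 sample, which is assumed to vary like the others. With the length and GC trend removed, the genes called lower in B-EBi3- went from 3 to 5. For the genotype in tumor libraries, the 13 genes called higher became 8 with the averaged pair, and 8 to 14 with 1 library left out. Called lower were 115 to 180 under all alternatives, and the interaction had 100 to 162 lower and 7 to 10 higher.

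Of the named genes, the direction reversed under the removal of the length and GC trend alone. Zfp148 went to -0.30 in WT, 0.24 for the genotype in tumor libraries and 0.25 in the interaction, Zfp451 to -0.28, 0.32 and 0.25, and Zfp771 to 0.55 in WT. That removal also ended calls whose direction stayed. These were 8 of 30 named genes called in the interaction and 7 of 31 called for the genotype in tumor libraries. In the tumor effects they were 2 of 31 in WT and 2 of 19 in B-EBi3-. Under a pseudocount of 5, quantile scaling, edgeR and DESeq2, all 31 named genes called in WT and all 19 called in B-EBi3- kept direction and call. Other alternatives, such as no filter or leaving out a library of the other genotype, keep the log2 difference by construction. A direction could not reverse there, though no filter ended 4 of the 19 calls in B-EBi3-. Fits that leave 1 sample in a group are not counted here.

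The title numbers 7 and 8 occur in both WT groups. As a replicate block in a fit of the 4 WT libraries they gave 207 genes higher and 13 lower, against 209 and 14 without the block. Libraries with the same number did not deviate together (correlation -0.26), and with the numbers crossed the counts were 214 and 16. No paired analysis was possible for the B-EBi3- groups because they share no number. With 2 libraries a group, changes of low genes are the least certain.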
